A study of Mus musculus with 30 samples.

Results

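The transcripts described here are those of the mouse mitochondrial genome, measured in haematopoietic stem cells sorted from bone marrow. Members were taken as every annotated gene whose symbol begins with mt-, after the Ensembl identifiers of the expression table had been matched to symbols. The annotation holds 37 such genes, of which 13 code for proteins, 2 for ribosomal RNAs and 22 for transfer RNAs. The table of 35727 genes held rows for the 13 coding genes, and those 13 are the members described. The ribosomal and transfer RNA genes were not analysed here. The study sequenced 30 libraries from mice of 3 kinds at up to 3 ages, and asked by its title how interleukin-1 and the microbiome bear on the ageing of these cells. Wild-type mice gave 4 libraries at 2 months, 5 at 1 year and 4 at 2 years. Mice labelled IL1R1 KO, which should lack the type 1 interleukin-1 receptor, gave 3 libraries at 2 months, 4 at 1 year and 5 at 2 years. Mice with a germ-free bowel gave 3 libraries at 2 months and 2 at 1 year. No promoter-driven transgene, treatment or strain was given for any group, and the libraries are described as coming from 30 mice.

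Mitochondria keep a small circular genome of their own, which is transcribed from both strands into long precursors. The transfer RNA genes punctuate these precursors, and their excision by the RNases P and Z frees the individual messenger and ribosomal RNAs, which mostly receive a poly(A) tail. The encoded proteins are core membrane subunits of respiratory complexes I, III and IV and of the ATP synthase, complex V, and they assemble with many subunits made from nuclear genes. Haematopoietic stem cells are known for holding mitochondria while relying little on respiration when they rest.

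On the plus strand the members run, in GRCm38 coordinates, from mt-Nd1 (chrM:2751-3707) through mt-Nd2 (chrM:3914-4951), mt-Co1 (chrM:5328-6872), mt-Co2 (chrM:7013-7696), mt-Atp8 (chrM:7766-7969), mt-Atp6 (chrM:7927-8607), mt-Co3 (chrM:8607-9390) and mt-Nd3 (chrM:9459-9806). They go on with mt-Nd4l (chrM:9877-10173), mt-Nd4 (chrM:10167-11544), mt-Nd5 (chrM:11742-13565) and mt-Cytb (chrM:14145-15288), while mt-Nd6 (chrM:13552-14070) lies on the minus strand. Each is 1 exon without introns, and the annotated span was used as its coding length. The identifiers of the members the results turn on are ENSMUSG00000064341 for mt-Nd1, ENSMUSG00000064360 for mt-Nd3 and ENSMUSG00000064368 for mt-Nd6.

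Several features of the genes set how well they can be counted, and the sequences that carry them are shown here. All coordinates and sequences are those of GENCODE M21 on GRCm38. The coding sequences of mt-Atp8 and mt-Atp6 share 43 bases on the plus strand, chrM:7927-7969. In the stretch printed below, the capitals mark the start codon of mt-Atp6 and the stop codon of mt-Atp8, so a read that lies there belongs to both genes.
mt-Atp8 and mt-Atp6 overlap: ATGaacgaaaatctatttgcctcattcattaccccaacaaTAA

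The last 14 bases of mt-Nd5 (plus strand) and of mt-Nd6 (minus strand) lie on the same positions, chrM:13552-13565, and are reverse complements of each other. Capitals mark the stop codons. The library protocol is not stated to keep strand, so reads there cannot be assigned to a strand, and neither can RNA of the opposite strand elsewhere in mt-Nd6.
mt-Nd5 end: ttaatctcgagTAA
mt-Nd6 end: ttactcgagatTAA

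In 3 members the annotated coding sequence ends on an incomplete stop codon, a single T, which is known to be completed by the poly(A) tail. Their last 30 bases are mt-Co3 at chrM:9361-9390, mt-Nd4 at chrM:11515-11544 and mt-Cytb at chrM:15259-15288, all on the plus strand, with that T in capitals.
mt-Co3 end: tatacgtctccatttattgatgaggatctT
mt-Nd4 end: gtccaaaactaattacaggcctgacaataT
mt-Cytb end: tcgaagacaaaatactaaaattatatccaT

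A block of the mitochondrial genome is also copied into chromosome 1 on the minus strand, where GENCODE annotates pseudogenes for 7 of the 13 members. Gm28438 covers 345 of the 348 bases of mt-Nd3 and differs at a single position, T3C, counted from 1 at the first base of mt-Nd3 (the mitochondrial base first). The first 30 bases of both are printed with the differing base in capitals, for mt-Nd3 from chrM:9459-9488 on the plus strand and for Gm28438 from chr1:24613090-24613119 on the minus strand.
mt-Nd3: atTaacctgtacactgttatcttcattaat
Gm28438: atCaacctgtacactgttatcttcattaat

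Gm29216 covers the last 492 bases of mt-Co1 and differs from it at 6 positions, T1056A, C1057T, A1059G, A1060G, C1062A and A1066T, after which 479 bases are identical. The stretch that holds all 6 is printed from chrM:6381-6440 on the plus strand and from chr1:24616138-24616197 on the minus strand, with the differing bases in capitals.
mt-Co1: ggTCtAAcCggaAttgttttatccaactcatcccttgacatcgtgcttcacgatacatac
Gm29216: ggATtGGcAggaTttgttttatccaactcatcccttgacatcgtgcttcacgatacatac

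Gm28661, Gm10925, Gm28437, Gm10222 and Gm28439 have no differing base over their aligned lengths of 681, 678, 783, 294 and 876 bases of mt-Co2, mt-Atp6, mt-Co3, mt-Nd4l and mt-Nd4. A read of 100 bases that falls in an identical stretch fits both the mitochondrial gene and its copy, so how such reads were shared between the 2 rows of a pair is decided by the authors' quantification.

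The deposited values are normalized counts. Library sums lay between 27467289 and 30739583. With the most frequent low value of each library taken as 1 read, the estimated depth lay between about 15600000 and 56300000 reads. At most 18.4% of low values were whole multiples of that value, so the estimate is rough. The lowest value of any of the 13 genes in a library was 922, for mt-Nd3. All 15 genes examined to check the cell type were above 0 in each library. The stem cell markers Procr and Slamf1 lay between 3210 and 7216 and between 1883 and 5249, and Cd48, which marks more mature progenitors, between 12.3 and 1444. Il1r1 was not lower in the libraries labelled IL1R1 KO: it lay between 137 and 383 in wild type and between 186 and 409 in the libraries so labelled, with log2 differences of 0.40 ± 0.30 (SE), 0.28 ± 0.26 and 0.25 ± 0.26 at 2 months, 1 year and 2 years (limma, adjusted p = 0.714, 0.751 and 0.804). Loss of only some exons would not be visible in a total over the gene, so the genotype rests on the labels. Replicate 1 of the 1-year group labelled KO carries 1 year in its title and 2 months in its age label, and was kept at 1 year. Of the 10 libraries of 2 months, 6 held Mpo, a granule enzyme of myeloid progenitors, at 23626 to 73276, and the other 4 at 4.33 to 3075. Since these are bulk samples, fewer cells of a type and less RNA per cell cannot be told apart.

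The 13 coding genes were among the most abundant transcripts of the sorted cells. Together they made up 2.73% ± 0.844 (SD, n = 30 libraries) of the library sum. mt-Co1, the catalytic subunit of cytochrome c oxidase (complex IV), ranked 2 of 35727 genes by its mean, and 8 of the 13 were among the 100 highest genes. The lowest were mt-Nd6 (rank 2800) and mt-Nd3 (rank 4241), which are both membrane subunits of complex I. By complex, the 3 genes of complex IV held 51.7% of the summed value of the 13, the 2 of complex V 18.5%, the 7 of complex I 18.2%, and mt-Cytb, the only member in complex III, 11.6%.

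Per kilobase of coding sequence, the order of levels ran from the ATP synthase and oxidase subunits down to those of complex I. mt-Atp6 (normalized count per kilobase, mean over 30 libraries, 187452 ± 57955 SD) and mt-Co1 (174285 ± 51181) stood at the top, and mt-Atp6 was above mt-Co1 in 21 of 30 libraries. With the copy Gm29216 added to mt-Co1, the value became 209165, above mt-Atp6. mt-Co2 followed at 101599 per kilobase, below mt-Co1 in 30 of 30 libraries.

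Below these came 4 genes within a narrow span of normalized counts per kilobase, mt-Atp8 at 89256, mt-Co3 at 86433, mt-Cytb at 79372 and mt-Nd1 at 63237. mt-Atp8 exceeded mt-Co3 in 15 of 30 libraries, so these neighbours did not separate, while mt-Cytb exceeded mt-Nd1 in 28 of 30. A step of 2.16 separated mt-Nd1 from mt-Nd4 (29284), in the same direction in 30 of 30 libraries. mt-Nd4l stood at 26299, mt-Nd5 at 14528, mt-Nd2 at 6359, mt-Nd3 at 4963 and mt-Nd6 at 4880. The last pair kept its order in 17 of 30 libraries and did not separate either. The highest mean per kilobase, of mt-Atp6, was 38.4 times the lowest, of mt-Nd6, which lies on the other strand. Among the 12 genes of the plus strand the ratio was 37.8, between mt-Atp6 and mt-Nd3.

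**Figure D1:**
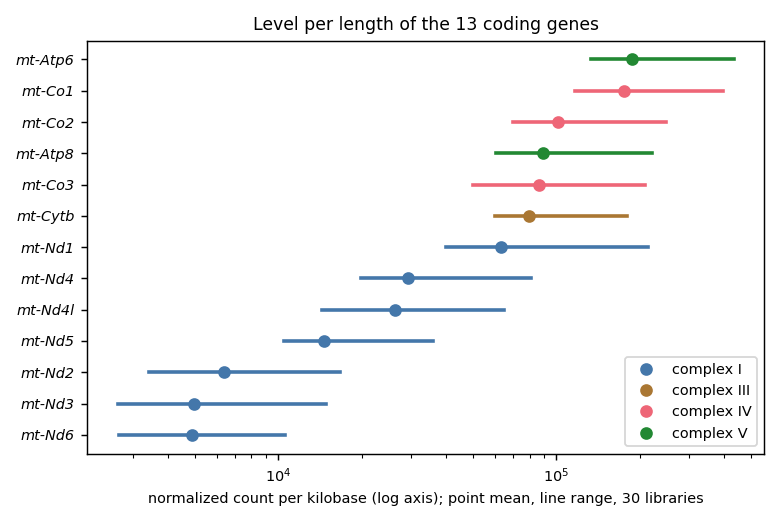
Normalized count per kilobase of coding sequence on a log axis for each of the 13 genes, as the mean (point) and the range (line) over 30 libraries, coloured by complex. The means run from 4880 for mt-Nd6 to 187452 for mt-Atp6, with the complex I genes filling the lower end.

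Across groups, the share of the library taken by the 13 genes varied widely between libraries of the same age. In wild type it was 2.54%, 3.44%, 2.24% and 3.49% in replicates 1 to 4 of 2 months. It was 3.46%, 2.29%, 2.04%, 1.98% and 2.63% in replicates 1 to 5 of 1 year. At 2 years it was 2.11%, 2.17%, 3.69% and 2.41%. Replicates 2 and 4 of 2 months, replicate 1 of 1 year and replicate 3 of 2 years were high, and the 3 ages overlapped.

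In the libraries labelled IL1R1 KO the share was 3.55%, 2.97% and 6.24% at 2 months. It was 2.54%, 2.71%, 2.50% and 2.80% at 1 year, and 2.25%, 2.19%, 2.02%, 2.32% and 1.94% at 2 years. The 3 ages did not overlap, and both older groups were tight where the youngest was wide. Germ-free libraries held 2.26%, 2.18% and 2.95% at 2 months and 2.70% and 3.22% at 1 year, which overlapped.

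**Figure D2:**
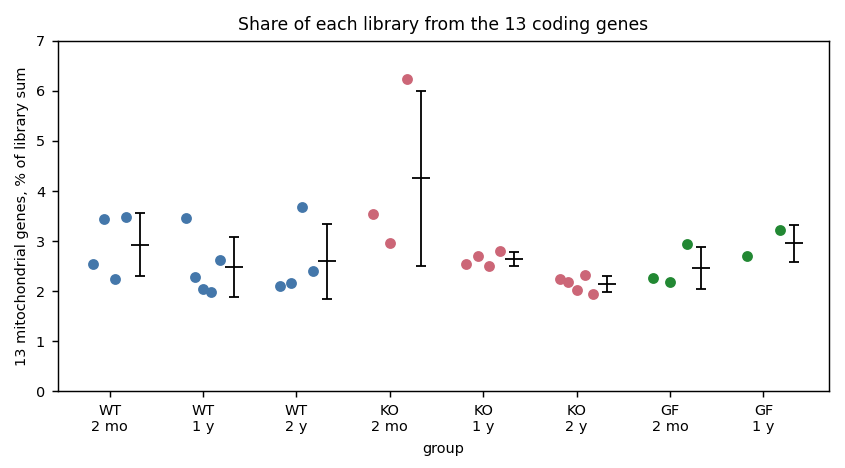
Share of the library sum (percent) from the 13 coding genes in each library (points) by group, with the mean and SD of the group in black. WT is wild type, KO is labelled IL1R1 KO and GF is germ-free. Replicate 3 of KO at 2 months stands at 6.24%, and the 5 KO libraries of 2 years between 1.94% and 2.32%.

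Replicate 3 of the 2-month group labelled KO was the highest of all 30 libraries for each of the 13 genes. Its mt-Nd1 of 204836 was 5.32 times the lowest library (38472), and its mt-Cytb of 205851 was 2.99 times the lowest (68904), which were the widest but for mt-Nd3 (5.61) and the narrowest of the 13 ranges. The same library held Mpo at 23626, between the 29251 of replicate 1 and the 3075 of replicate 2 of its group. Its erythroid marker sum (13 genes, none at 0) was 122384 against 68309 and 78150 in the other 2. A sum of 13 handling-response genes such as Fos and Egr1 was 598353 against 277386 and 327333. Of the 4 wild-type libraries with high shares, replicates 2 and 4 of 2 months held Mpo at 73276 and 60867 and a neutrophil and granule sum (13 genes, none at 0) of 120389 and 99615. Replicate 1 of 1 year held 2045 and 17730, and replicate 3 of 2 years 3529 and 61128. These sums were the highest of their groups in all 4 but replicate 4 of 2 months, which came after replicate 2. Replicate 3 of wild type at 2 months held 46694 with the lowest share of its group, 2.24%. In germ-free libraries of 2 months, replicate 3 was highest in both (161087 and 2.95%), but replicate 1 held 100712 with a share of 2.26%. In the 2-month libraries labelled KO, replicate 1 held 62241 with 3.55%, and replicate 3 held 44496 with 6.24%. The part of these markers in the level of the 13 genes was not tested.

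The 13 genes moved together between libraries. After subtraction of each group's mean, the 78 pairwise Pearson correlations of log2 values over 30 libraries ran from 0.62 to 0.98 with a median of 0.88, and from 0.45 to 0.98 with a median of 0.83 without the highest library. These points share library, depth and scaling, and are given as a description. mt-Atp6 had the highest median correlation with the other 12 (0.93) and mt-Nd3 the lowest (0.79). The spread within groups (pooled SD of log2 values) went from 0.29 for mt-Co1 to 0.43 for mt-Nd3. The 77 tested nuclear genes for respiratory subunits had a median correlation of 0.03 with the mean of the 13, and the 60 nuclear genes of mitochondrial expression one of -0.14, beside 0 over all 16945 other tested genes.

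The nuclear genes least and most like the 13 were picked by their correlation with that mean over the 30 libraries. The lowest was Ppif, which encodes cyclophilin D of the mitochondrial matrix (r = -0.85, and -0.83 without the highest library), followed by Tmem161a (-0.81), Pdf, the mitochondrial peptide deformylase (-0.80), AW209491 (-0.78) and Rfc2, a clamp loader subunit of DNA replication (-0.78). The highest were Rhox8 (0.77), the olfactory receptor genes Olfr93 and Olfr1221 (both 0.76), Dmtn, an actin-binding protein of red cells (0.75), and Mroh1 (0.75). Of these 5, Rhox8, Olfr93 and Olfr1221 had mean normalized counts of only 17.3, 10.5 and 14.6.

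With age in wild type, no member passed the test at any interval. Each change was tested on log2(normalized count + 1) with limma over the 16958 genes that reached 10 in 3 or more libraries, and called at a Benjamini-Hochberg adjusted p under 0.05. Against 2 months, 0 of 13 were called at 1 year, where 10.7% of all tested genes were, and 0 of 13 at 2 years, where 5.55% were. At an unadjusted p under 0.05 the counts were 2 (mt-Nd2 and mt-Nd6, both lower) and 3 (mt-Nd2, mt-Nd3 and mt-Nd6, all lower), against 10.9% and 7.71% of all genes lower. The median log2 change of the 13 was -0.31 at 1 year and -0.28 at 2 years, with the median of all genes at 0.01 for both, and 0.03 between 1 and 2 years, where 0 of 13 were called (0.0118% of all genes), and 0 at an unadjusted p under 0.05 (4.36%). When the 6 young libraries rich in Mpo were left out, the medians against 2 months were 0.01 and 0.05.

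mt-Nd6 had the lowest change in wild type. It stood at 2518, 3093, 2687 and 4208 in replicates 1 to 4 of 2 months, at 3693, 1595, 1388, 1526 and 2095 at 1 year, and at 1895, 1532, 2929 and 1712 at 2 years. Replicate 1 of 1 year and replicate 3 of 2 years lay within the range of 2 months, so the ages overlapped. The log2 change was -0.67 ± 0.25 (SE) at 1 year and -0.65 ± 0.26 at 2 years (limma, adjusted p = 0.0857 and 0.169). mt-Nd2, another subunit of complex I, changed by -0.63 ± 0.21 at 1 year, the closest of the 13 to the threshold (adjusted p = 0.0555). Leaving out replicate 1 of 1 year brought 2 genes past it, and leaving out replicate 1 or 3 of 2 months brought 1, as did array quality weights.

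With age in the libraries labelled IL1R1 KO, subunit genes of all 4 complexes fell. At 2 years against 2 months, 12 of 13 genes were called lower, where 2.9% of all tested genes were, and the same 12 had no overlap between the 3 young and the 5 old libraries, where 7.44% of all genes had none in that direction. Their median log2 change was -0.91, against 0.00 for all genes. At 1 year, mt-Nd1 alone was called lower (0.613% of all tested genes were), 11 of 13 were lower at an unadjusted p under 0.05 (6.41% of all genes), and the median was -0.64. At that age mt-Nd1, mt-Co2, mt-Nd4l and mt-Nd4 had no overlap with 2 months, 4 of 13 against 5.34% of all genes in that direction.

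mt-Nd1, the complex I subunit beside the quinone-binding site, had the largest log2 change. Its normalized counts were 116093, 70077 and 204836 in replicates 1 to 3 of 2 months. At 1 year they were 53156, 56602, 54758 and 56289, and at 2 years 44544, 45337, 42503, 48103 and 41678. All 9 older libraries lay below the lowest young one, and the 2 older groups did not overlap either. The log2 change was -1.10 ± 0.25 (SE) at 1 year (limma, adjusted p = 0.019) and -1.42 ± 0.24 at 2 years (0.000329). When the highest young library was left out, the change to 2 years was -1.02 ± 0.22 (adjusted p = 0.00426). mt-Nd1 also took a larger part of the summed 13 in the young libraries of this group, 10.9%, 8.31% and 10.7% against 6.67% to 7.42% in the 9 older ones.

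The other subunits of complex I had smaller log2 changes. mt-Nd4, a proton-pumping subunit, stood at 56263, 41821 and 111509 at 2 months and between 27256 and 31461 at 2 years, a change of -1.12 ± 0.21. mt-Nd4l, at 10852, 8115 and 19262 against 4676 to 5756, changed by -1.20 ± 0.26, and mt-Nd2, at 8659, 6177 and 17348 against 3766 to 5142, by -1.15 ± 0.23. These 3 and mt-Nd1 are the 4 genes that still passed the test when replicate 3 of 2 months was left out. mt-Nd5, the pumping subunit at the far end of the membrane arm, stood at 32342, 26301 and 65568 against 19094 to 22427 (-0.89 ± 0.21), and mt-Nd3 at 2503, 1636 and 5174 against 1108 to 1517 (-1.10 ± 0.29). mt-Nd6, on the opposite strand, was the member not called: its 2548, 2162 and 5486 overlapped the 1597 to 2261 of 2 years (-0.72 ± 0.27, limma, adjusted p = 0.106).

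In complexes III, IV and V the young and old libraries labelled KO were likewise apart. mt-Cytb, the cytochrome b of complex III, stood at 116795, 92963 and 205851 at 2 months and between 69102 and 76714 at 2 years (-0.85 ± 0.20). mt-Co1, with 350648, 289759 and 611021 against 204092 to 248165, had the smallest change of the called genes (-0.80 ± 0.20). mt-Co2, which carries the copper centre that takes electrons from cytochrome c, stood at 89289, 74287 and 169023 against 49731 to 61595 (-0.91 ± 0.22).

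mt-Co3, the remaining oxidase subunit, stood at 80769, 76605 and 163090 against 41965 to 53542 (-1.08 ± 0.30). mt-Atp6, which forms the proton channel of the ATP synthase, stood at 172885, 134227 and 295278 against 101209 to 118889 (-0.81 ± 0.20). mt-Atp8, a small subunit that helps assemble it, stood at 25146, 19097 and 44882 against 13918 to 16910 (-0.85 ± 0.23). In each of these genes replicate 2 was the lowest of the 3 young libraries and still above every library of 2 years. The adjusted p-values of the 12 called genes lay between 0.000329 and 0.0232 (limma).

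**Figure D3:**
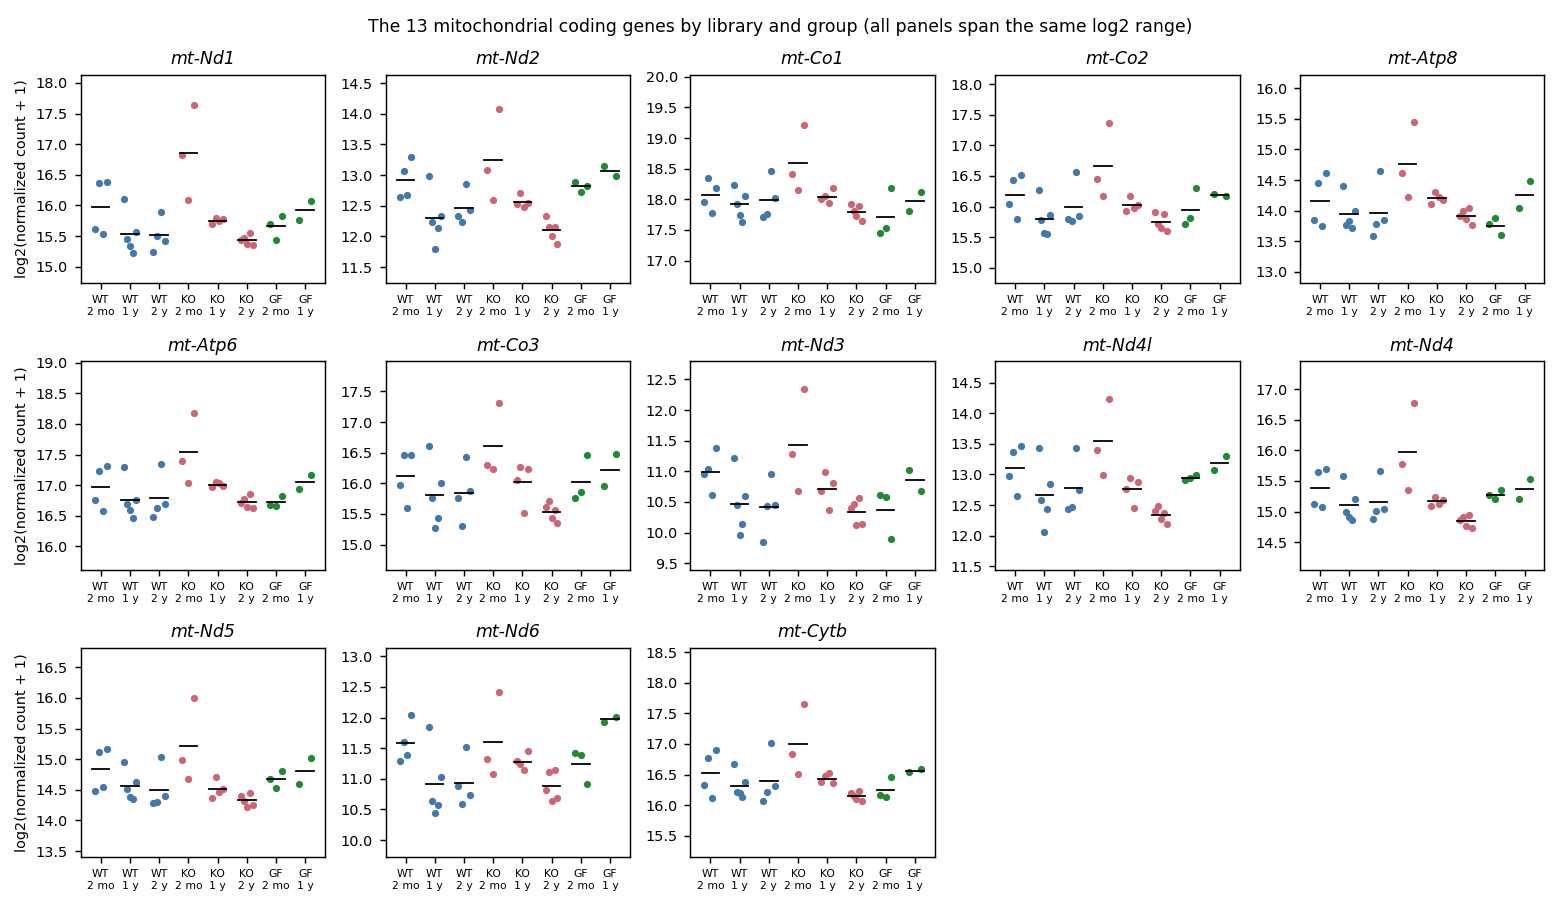
log2(normalized count + 1) of each of the 13 genes in every library (points) by group, with group means as lines; all panels span the same log2 range. WT is wild type, KO is labelled IL1R1 KO and GF is germ-free. The KO libraries of 2 years lie below those of 2 months in every panel but that of mt-Nd6, where they overlap, and replicate 3 of KO at 2 months is the highest point of each panel.

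The size of this fall changed with the young libraries that were kept. The shares of all tested genes given above are those of the main fit, and may differ in the fits that follow. Without replicate 3 of 2 months the median log2 change was -0.56 at 2 years, with 4 of 13 called, and -0.27 at 1 year, with 0 called. Without the 6 high-Mpo libraries, which leaves replicate 2 as the only young library labelled KO and assumes that it varies like the other groups, the medians were -0.36 and -0.10, with 0 called at both ages (mt-Nd1 -0.66 ± 0.22 at 2 years, limma, adjusted p = 0.115). With replicate 1 of 1 year placed at 2 months, as its age label says, 5 genes were called at 2 years and 0 at 1 year. The call of mt-Nd1 at 1 year was also lost without replicate 1 of 2 months (-1.12, limma, adjusted p = 0.0816), whereas 4 genes were called at that age without replicate 2.

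Marker genes of other cells and states were also called at 2 years against 2 months in the libraries labelled KO. Of all tested genes, 8.02% were called in that comparison in either direction, and 2.9% were called lower. The neutrophil and granule sum (13 genes) was 62241, 12136 and 44496 at 2 months and 16912 to 27607 at 2 years, with at most 1 gene at 0 in a library, and 1 of 13 was called higher and 0 lower. The handling-response sum was 277386 to 598353 at 2 months and 502206 to 644724 at 2 years, with none of its 13 genes at 0, and 4 of 13 were called higher and 2 lower. The sum over 11 genes of dividing cells, none at 0, was 39031 to 59118 against 26177 to 36519, and 5 of 11 were called lower. The T and NK sum (8 genes, 2 to 4 at 0 in a library, 6 tested) was 859 to 2263 against 381 to 459, without overlap, and 2 were called lower. Of the remaining lists, 2 of 10 monocyte and macrophage genes and 1 of 6 tested mast and basophil genes were called higher, 1 of 13 erythroid genes lower, and 2 of 15 stem cell genes higher and 2 lower. Most genes of the first 2 of these lists went the other way. Of the monocyte and macrophage genes, 7 of 10 had a log2 change below 0, with a median of -1.2. Of the tested mast and basophil genes, 5 of 6 had, with a median of -4.24. No B and plasma, endothelial or stromal gene was called. Their part in the fall of the mitochondrial transcripts was not tested.

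Between 1 and 2 years in the libraries labelled KO, 0 of 13 genes were called (0.177% of all tested genes were) and 1 was lower at an unadjusted p under 0.05 (mt-Nd2; 3.2% of all genes), although in 8 of 13 every library of 2 years lay below every library of 1 year, where 1.71% of all genes did. The median log2 change was -0.31. With only the groups compared in the fit, 5 of 13 were called, while the 0.177% above belongs to the main fit.

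The ageing change was not shown to differ between the genotypes. The difference of the changes to 2 years, labelled KO minus wild type, had 0 of 13 called (0.395% of all tested genes were), with 8 of 13 lower at an unadjusted p under 0.05, against 4.24% of all genes. The difference was -0.89 ± 0.30 on the log2 scale for mt-Nd4 and -0.96 ± 0.33 for mt-Nd1 (limma, adjusted p = 0.219 and 0.26), and their median was -0.71. Without replicate 3 of 2 months labelled KO the median was -0.36. To 1 year, 0 of 13 were called (0.0354% of all genes) and 0 had an unadjusted p under 0.05 (10.1%).

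**Figure D4:**
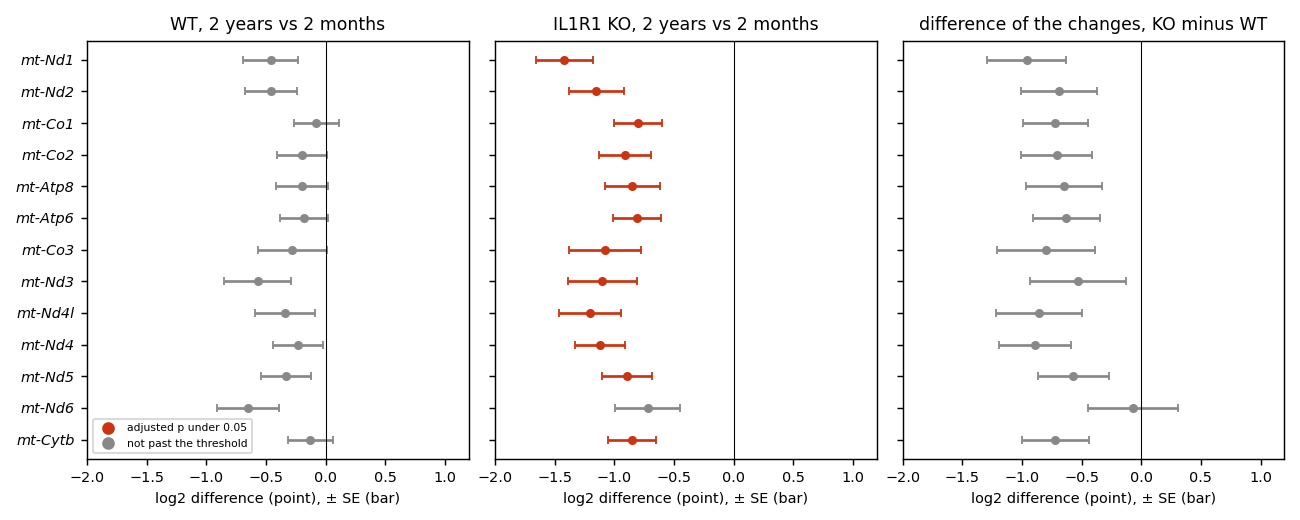
log2 difference (point) with its standard error (bar) for each of the 13 genes, from limma over all 30 libraries. Left and centre: 2 years against 2 months in wild type and in the libraries labelled IL1R1 KO; right: the difference between those changes. The 12 coloured points of the centre panel have an adjusted p under 0.05, and no point of the other panels has.

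Set against wild type of the same age, libraries labelled KO had no called member. At 2 months 0 of 13 were called (0.407% of all tested genes) and 7 had an unadjusted p under 0.05, all higher, against 5.19% of all genes; the groups overlapped in each gene. mt-Nd1 was again the furthest, with 50328, 84295, 47558 and 85374 in the 4 young wild-type libraries against the 70077 to 204836 above, a log2 difference of 0.88 ± 0.25 (limma, adjusted p = 0.159). The median difference was 0.47, and 0.14 without replicate 3 labelled KO. When replicate 2 labelled KO was left out, 1 gene was called. At 1 year and 2 years 0 of 13 were called (1.3% and 1.42% of all genes), 0 had an unadjusted p under 0.05 (12% and 11.5%), and the medians were 0.21 and -0.19.

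Between germ-free mice and wild type at 1 year, mt-Nd6 was the only member called, a count near the rate over all genes. Its normalized counts were 3910 and 4125 in the 2 germ-free libraries, above the 3693, 1595, 1388, 1526 and 2095 of wild type, with no overlap. The log2 difference was 1.06 ± 0.31 (limma, adjusted p = 0.0444), and it was the 1 gene of 13 called, where 4.96% of all tested genes were. mt-Nd2, at 9100 and 8089 against 8080, 4822, 3569, 4485 and 5136, also had no overlap (0.77 ± 0.26, adjusted p = 0.0854), so 2 of 13 genes were apart, against 13.2% of all genes in that direction. The same 2 were higher at an unadjusted p under 0.05, where 8.87% of all genes were. The median over the 13 was 0.38.

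The call of mt-Nd6 was close to the threshold. It was lost without either germ-free library or any of wild-type replicates 2 to 5 (log2 0.95 to 1.10), with array quality weights, without a filter on low values, with only these groups in the fit, and with the replicate number as a block (1.09 ± 0.35, limma, adjusted p = 0.0931). Without wild-type replicate 1, it was 1.30 ± 0.27 and 2 genes were called. Of the marker lists, 5 of 13 erythroid genes and 2 of 11 genes of dividing cells were called higher in the same comparison, with erythroid sums of 63076 and 74083 against 51592 to 67316 and at most 1 gene at 0, and sums for dividing cells of 26550 and 33594 against 25473 to 29196 and none at 0. In the other direction, 3 of 15 stem cell genes were called lower, and their sums, none at 0, were 105460 and 115926 against 129447 to 137875, without overlap. No gene of the other 7 marker lists was called, and 4.96% of all tested genes were called in this comparison. Their part was not tested.

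With age in germ-free mice 0 of 13 genes were called (2.1% of all tested genes), 1 was higher at an unadjusted p under 0.05 (mt-Nd6, 0.73 ± 0.34; 7.84% of all genes), and the median log2 change was 0.25. In 7 of 13 genes both libraries of 1 year lay above all 3 of 2 months, against 13.9% of all genes. The germ-free change minus the wild-type change had 0 of 13 called (0% of all genes), and 4 higher at an unadjusted p under 0.05, where 4.57% of all genes were (mt-Nd6 1.40 ± 0.42, limma, adjusted p = 0.246). These comparisons share the wild-type libraries. At 2 months, germ-free against wild type, 0 of 13 were called (0.601% of all genes), the median was -0.25, and 1 gene, mt-Nd3, was lower at an unadjusted p under 0.05 (5.14%).

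At 2 months, the germ-free difference of mt-Nd3 changed direction when the row of Gm28438, the sequence shown above that differs by T3C, was added to it. That row holds reads assigned to the copy's sequence. Which base the mitochondrial genome of the germ-free mice carries there was not read, so nuclear and mitochondrial RNA cannot be told apart in the row. It is no measure of nuclear transcription, and if it held mitochondrial reads, the sum of the 2 rows rather than mt-Nd3 alone would be the level of the gene. mt-Nd3 stood at 1560, 1538 and 954 in germ-free libraries of 2 months, below the 1978, 2095, 1566 and 2653 of wild type, without overlap (-0.63 ± 0.30, limma, adjusted p = 0.508; 3.74% of all genes had no overlap in that direction). The row of Gm28438 held 1643, 1613 and 1305 in the same germ-free libraries and 26.9, 43.7, 18 and 8.54 in the wild-type ones. At 1 year it held 1139 and 2146 in germ-free mice against 299, 21.7, 3.14, 0 and 0 in wild type. The 5 germ-free libraries lay between 1139 and 2146, and the 25 others between 0 and 552, with a median of 18.

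The log2 difference of Gm28438 between germ-free and wild type was 6.12 ± 1.44 at 2 months and 7.66 ± 1.58 at 1 year (limma, adjusted p = 0.0438 and 0.00631). Values near 0 make these sizes depend on the pseudocount: with 10 added in place of 1 they were 5.58 and 5.90. At 2 months the call was lost when any single library of the 2 groups was left out (adjusted p up to 0.133), with array quality weights (0.232), without a filter (0.0502), with a pseudocount of 0.1 (0.219) or without the high-Mpo libraries (0.372), and at 1 year without germ-free replicate 1 (0.0621) or with only these groups in the fit (0.116).

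Outside the germ-free groups, the row was highest in replicate 1 of wild type at 2 years (552), replicate 1 of wild type at 1 year (299) and replicate 3 labelled KO at 2 months (181). As a share of the sum of mt-Nd3 and Gm28438, it took 51.3%, 51.2% and 57.8% in germ-free libraries of 2 months, and 35.4% and 56.6% at 1 year. In the 25 other libraries it took a median of 1.2%, and at most 37.4%, in that replicate 1 of 2 years.

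Adding the 2 rows turned the direction at 2 months, though neither direction was called and the sums of the 2 groups overlapped. The sum of mt-Nd3 and Gm28438 was 3204, 3151 and 2259 in germ-free and 2005, 2139, 1584 and 2662 in wild-type libraries of that age, a log2 difference of 0.46 ± 0.29 (limma, adjusted p = 0.666) in place of -0.63. At 1 year the sum was 3216 and 3788 against 2677, 1420, 1003, 1126 and 1540, which did not overlap (1.26 ± 0.31, adjusted p = 0.0197), while mt-Nd3 alone was not called (0.38 ± 0.33, adjusted p = 0.555). With the copies added, 2 of 13 genes were therefore called higher at 1 year. The share of all genes called in that fit is not given here. The sum in the libraries labelled KO changed by -1.12 ± 0.27 from 2 months to 2 years, close to mt-Nd3 alone.

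**Figure D5:**
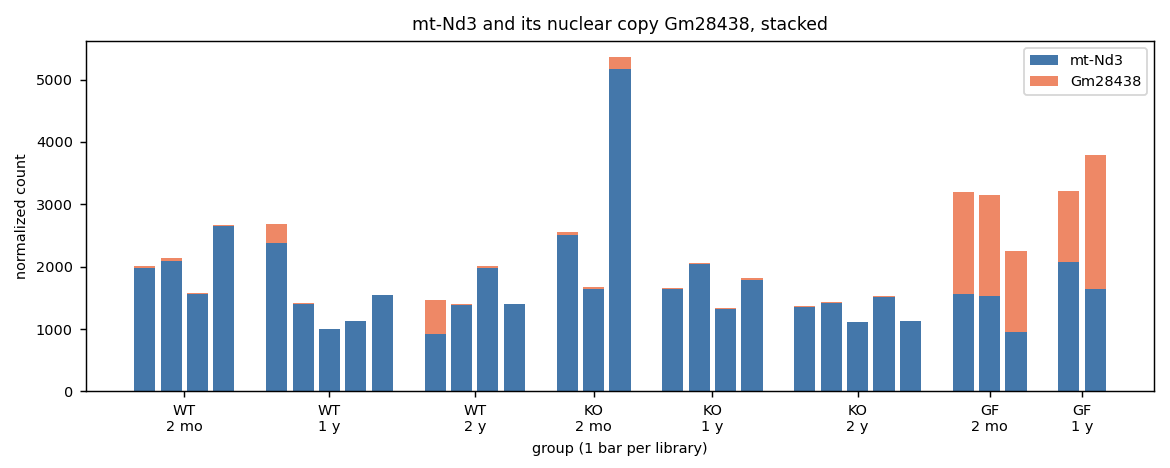
Normalized count of mt-Nd3 (blue) and of the row of Gm28438 (orange) stacked for each library, by group. WT is wild type, KO is labelled IL1R1 KO and GF is germ-free. The orange part is between 1139 and 2146 in the 5 germ-free libraries and reaches at most 552 elsewhere.

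The row of Gm29216, the copy of mt-Co1, was above 0 in every library. It lay between 35384 and 114677, the highest again in replicate 3 labelled KO at 2 months, and took 16.2% ± 1.46 (SD, n = 25) of the sum of the pair in wild-type and KO-labelled libraries and 19.6% ± 1.95 (n = 5) in germ-free ones, ranges of 12.7% to 18.7% and 17.7% to 22.8% that overlapped. Gm28437, the copy of mt-Co3, was above 0 in 8 of 30 libraries (up to 2436), Gm28661, the copy of mt-Co2, in 1 (1455), both highest in replicate 3 of wild type at 1 year, and Gm10925, Gm10222 and Gm28439 were listed at 0 in all 30. In all, 21 genes of the table shared runs of 31 bases with 12 of the members, and 6 of these had a mean of at least 10, including Gm13340 at 92.6.

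The nuclear genes that transcribe, process and stabilise mitochondrial RNA, or act on its genome, were called at about the rate of all genes in the main comparison. Of 60 such genes, all tested, 4 were called higher and 1 lower at 2 years in the libraries labelled KO, where 8.02% of all tested genes were called, with a median log2 change of -0.02. Nfe2l2 (0.79 ± 0.11) and Myc (0.94 ± 0.14) are transcription factors that act on many nuclear genes, Trmt10c (0.77 ± 0.18) is a subunit of mitochondrial RNase P, and Pde12 (0.60 ± 0.18) removes poly(A) from mitochondrial RNA (limma, adjusted p from 1.37e-05 to 0.031). Rrm2b, which supplies nucleotides for mitochondrial DNA, changed by -0.65 ± 0.21 (adjusted p = 0.0493). At 1 year Nfe2l2 (0.54 ± 0.11) and Myc (0.56 ± 0.15) were called, both higher, 2 of 60 where 1.39% of all genes were higher.

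In the ageing difference of the libraries labelled KO minus wild type to 2 years, Nfe2l2 (0.72 ± 0.15, limma, adjusted p = 0.0261) and Myc (0.92 ± 0.20, 0.0335) were called higher, 2 of 60 where 0.395% of all genes were called, while the mitochondrial genes were not called. In wild type, 1 of 60 was called at 1 year (10.7% of all genes), Hsd17b10, another subunit of mitochondrial RNase P (0.32 ± 0.10), and 1 at 2 years (5.55%), Tfam, which packages mitochondrial DNA and starts its transcription (-0.51 ± 0.13, adjusted p = 0.0189). In germ-free mice 1 of 60 was called at 1 year against 2 months (2.1% of all genes), Nfe2l2 (0.49 ± 0.13), and 1 against wild type at 1 year (4.96%), Fastk, of a family that binds mitochondrial RNA (-0.67 ± 0.15). Labelled KO against wild type at 2 years had 1 of 60 called, Nfe2l2 (0.43 ± 0.10), beside 1.42% of all genes. In the remaining 7 comparisons 0 of 60 were called, where 0% to 1.3% of all genes were, and 2 to 9 had an unadjusted p under 0.05. The 2 were in wild type from 1 to 2 years, where 4.36% of all genes had such a p. The 9 were in labelled KO against wild type at 1 year, where 12% had.

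The nuclear-encoded respiratory subunits are partners of the 13 proteins, but for the 4 of complex II, which holds none of the 13. They were called most often in wild type at 1 year. There, 26 of 77 tested were called lower, where 4.61% of all tested genes were, with a median log2 change of -0.25 (Ndufa5, Cox7c and Cox6c by -0.59 ± 0.12, -0.60 ± 0.12 and -0.56 ± 0.11), where 0 of the 13 mitochondrial genes were. In the libraries labelled KO at 2 years, 3 of 77 were called lower, where 2.9% of all genes were (Ndufa5, Ndufa4 and Ndufc2, by -0.51 ± 0.13, -0.40 ± 0.11 and -0.36 ± 0.10), with a median of -0.20, beside 12 of 13 mitochondrial genes. In wild type at 2 years 5 of 77 were called lower, where 1.63% of all genes were, and in germ-free against wild type at 1 year 6 were called higher and 1 lower, where 4.96% of all genes were called. In wild type at 1 year, 72 of the 77 and 13 of the 13 had a log2 change below 0, with medians of -0.25 and -0.31. In the libraries labelled KO at 2 years, 75 of the 77 and 13 of the 13 had, with medians of -0.20 and -0.91. The median of all genes was 0.01 and 0 in these 2 comparisons. Counts of called genes also depend on the standard errors, so they do not measure a difference between the lists. Whether the 77 and the 13 genes differ was not tested.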

How the data were processed

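RNA of sorted cells was extracted with a PicoPure kit and turned into Smart-seq2 and Nextera XT libraries, per the labels' protocols, and sequenced as single 100-base reads. The submitters' processing notes name FastQC 0.11.9, cutadapt 2.10, Salmon 1.2.0.0, DESeq2 1.26.0 and the builds GRCm38 and mm10. The deposited values are a signal table of normalized counts made by the authors, in which at most 18.4% of low values are whole multiples of 1 read (tolerance 0.001), so reads were not recovered and no count model was run. Of 35727 identifiers 35422 matched a symbol in the reference table of gene names, with positions from GENCODE M21.

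log2(value + 1) was tested with limma 3.58.1 (R 4.3.3, trend and robust, 8 group means, 30 libraries) over 16958 genes with at least 10 in at least 3 libraries, with Benjamini-Hochberg adjustment over all of them at 0.05, and tested on simulated data. P-values measure the spread between libraries, which the series' design text counts as 30 mice; that no library pooled or shared animals is not stated. The members and lists were chosen with earlier results of these data known. Named genes were all 13 coding genes, Il1r1, nuclear copies with a mean of at least 10, list members called with the smallest p (up to 4 of 60 mitochondrial expression genes and 3 of 77 respiratory subunits, to which Rrm2b was added after its value was seen), and the 5 highest and 5 lowest in likeness. The low copies and the search of shared 31-base runs were added after values were seen. Alternatives were other pseudocounts, filters, scalings, weights, a replicate block, other sets of libraries and, chosen after seeing the data, nuclear copies added to their genes.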

Additional observations from a re-analysis of the deposited data

Results flagged for a closer look

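In 70 sets of 4 or 5 libraries of a group, the highest or lowest library was compared with its nearest neighbour by Dixon's criterion. In 2 sets that library stood apart. The sets share libraries, and the mitochondrial genes moved together between libraries (median pairwise r of 0.88). The sets are therefore not independent, and the count of 2 cannot be set against a chance rate of 1 in 20. The library that stood apart was replicate 3 of wild type at 2 years in both. Its mt-Co2 was 96503 against 55698 to 59227 in the other 3 libraries, and its mt-Nd5 33483 against 20002 to 21497. That library held Mpo at 3529, within the 2630 to 16541 of its group. Its neutrophil and granule marker sum of 61128 was the highest of the group (18457 to 45628 in the others). The part of these markers in the 2 values was not tested.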

How the results depend on the processing

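No alternative turned the direction of a called gene, and 57 values of single genes lost their call, most often without the 6 high-Mpo libraries (14), without replicate 3 labelled KO at 2 months (9) and with replicate 1 of 1 year placed at 2 months (8). For labelled KO at 2 years against 2 months, 12 genes called became 5 with that placement and 0 without the high-Mpo libraries, and 4 to 13 when single libraries were left out. At 1 year, 1 became 0 with the placement, with only the groups compared and without the high-Mpo libraries, and 0 to 4 with single libraries left out. From 1 to 2 years, 0 became 5 with only the groups compared. For germ-free against wild type at 1 year, 1 became 0 with array weights, no filter, only the groups compared and the replicate block, 2 with copies added or without the high-Mpo libraries, and 0 to 2 with single libraries left out. Wild type at 1 year against 2 months went from 0 to 1 with array weights and 0 to 2 with single libraries left out, and labelled KO against wild type at 2 months from 0 to at most 1. The shares of all tested genes given earlier are those of the main fit, and may differ in these alternatives. The causes were not tested. The sample titles number the replicates without saying what the numbers stand for. Over 88 same-numbered pairs the correlation of deviations was -0.11 to 0.16 (median 0.01), and 10 of 30 libraries correlated best with their own number. No expected count was worked out, so whether the numbers carry a batch cannot be told from these values. With the replicate block, 11 genes were called for labelled KO at 2 years. Groups of 2 to 5 libraries limit what could be called.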
